A study of Homo sapiens with 60 samples.

Results

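The 10 genes of the mucus layer described here were followed in HT29 cells, a line from a human colorectal adenocarcinoma, after exposure to water extracts of medicinal plants. They were taken by symbol, matched from the Ensembl identifiers of the expression table, and all 10 were found among 60675 genes: the secreted gel-forming mucins MUC2 and MUC5AC, the membrane mucins MUC1, MUC3A, MUC12 and MUC13, the goblet cell products TFF3, REG4 and FCGBP, and the transcription factor SPDEF. The treated cells received a water extract at a nominal 20, 100 or 500 µg/mL for 24 h. The extracts were those of the single plants Cinnamomi Cortex, Astragali Radix, Cnidii Rhizoma and Rehmanniae Radix Preparata, and of Samul-tang and Sagunja-tang, herbal formulae of several plants. Controls received DMSO, given as 0.1% in the labels and as 2% in the design text. Each of these 19 groups had 3 libraries, 57 in all, and Paeoniae Radix added 1 library at each dose. All are bulk RNA of a single cell line. The design text says that doses of toxic extracts were lowered, while the labels give the same 3 doses for every extract. Nothing in the labels says that replicates came from separate cultures, and the p-values therefore cover only how far these libraries scatter, which may be technical.

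Mucus in the colon is built from MUC2, which goblet cells secrete and which swells into a gel, while MUC5AC is the gel-forming mucin of stomach and airway and appears in many colorectal tumours. Membrane mucins instead stay anchored in the apical membrane, where their glycosylated extracellular parts form the glycocalyx. TFF3 is a trefoil peptide secreted with mucin, FCGBP is a mucus protein that associates with MUC2, REG4 is a secreted lectin of secretory cells, and SPDEF drives goblet cell maturation.

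Libraries held 20459346 to 36253747 counts. Markers of colorectal epithelium were high, with 8 of 9 at a median of 1 CPM (counts scaled to an equal library total) or more and a summed level of 10440 to 13480 CPM in treated libraries, against 10880 to 11690 CPM in vehicle libraries. The fibroblast list summed to 1.41 to 2.84 CPM in treated libraries and 1.79 to 2.25 CPM in vehicle libraries, with 4 of its 6 markers at a median of 0. The endothelial list reached 1.19 to 2.45 CPM in treated libraries and 1.87 to 1.99 CPM in vehicle libraries. The leukocyte list summed to 1293 to 1767 CPM in treated libraries and 1422 to 1487 CPM in vehicle libraries, and the Paneth cell list to 1287 to 1763 CPM in treated and 1414 to 1482 CPM in vehicle libraries. Both lists hold lysozyme, LYZ, which alone had 1286 to 1762 CPM over 60 libraries, and 2 of 5 leukocyte and 3 of 5 Paneth markers were at a median of 0. Absorptive enterocyte markers summed to 265.6 to 412.9 CPM in treated libraries and 269.5 to 320.7 CPM in vehicle libraries. Most of that sum was KRT20, which alone had 253.3 to 401 CPM over 60 libraries, and 4 of the 9 enterocyte markers were at a median of 0. Enteroendocrine and tuft cell markers summed to under 4 CPM in every library. The libraries of the fit were divided by sample code into a pair of sets, chosen with earlier results of these data known. The labels name no such sets and do not say what the codes stand for. Set 1 has 27 libraries, those of the vehicle, of Rehmanniae Radix Preparata and Cnidii Rhizoma, and the first replicate of Astragali Radix and of Cinnamomi Cortex. Set 2 has 30, the other replicates of Astragali Radix and Cinnamomi Cortex and both formulae. All titles name the same batch. Mitochondrial mRNAs made up 7.20 ± 1.04% of counts in set 2 and 9.69 ± 1.12% in set 1 (SD). Every comparison of a formula with vehicle is also a comparison of set 2 with set 1, and extract and set cannot be told apart there except through the plants that have libraries in both, so values with a term for the set are given beside the main results.

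Scaled by exon length, the 10 genes spanned a wide range of expression. MUC13, a membrane mucin of the colon surface, had the highest level, a median of 41.8 CPM per kb over 60 libraries with a range of 33.4 to 50.2. SPDEF came next at 15.8 CPM per kb (12.8 to 19.7), then MUC5AC at 9.94 (8.09 to 13.2) and REG4 at 8.16 (6.66 to 10.2). TFF3 stood at 3.92 CPM per kb, MUC3A at 2.24, MUC2 at 1.49, FCGBP at 1.28, MUC12 at 0.535 and MUC1 at 0.257. The library ranges of neighbours in this order overlapped, except that MUC13 lay wholly above SPDEF, REG4 wholly above TFF3 (3.03 to 5.33), and MUC12 (0.378 to 0.866) wholly above MUC1 (0.107 to 0.344). Thus MUC5AC and not MUC2 was the leading gel-forming mucin here, and among the listed mucins that are not in the set of 10 only the membrane mucin MUC20, at a median of 15.0 CPM per kb, was above MUC3A. MUC17, a membrane mucin of the intestine, had 0.682 CPM per kb. MUC5B, MUC6, MUC4 and MUC16 had medians of 0.0399, 0.0414, 0.0213 and 0.0319 CPM per kb. Of the listed goblet products outside the 10 genes, some were well expressed and several were at the floor. AGR2, BCAS1, AGR3 and ERN2 had medians of 81.8, 9.7, 7.19 and 3.85 CPM per kb. ZG16, a mucus lectin, had 0 counts in 39 of 60 libraries and at most 3 counts, CLCA1, a mucus-processing protease, had 0 counts in 40 and at most 3, and ITLN1, a further lectin, had 0 in 57 and at most 1.

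**Figure D1:**
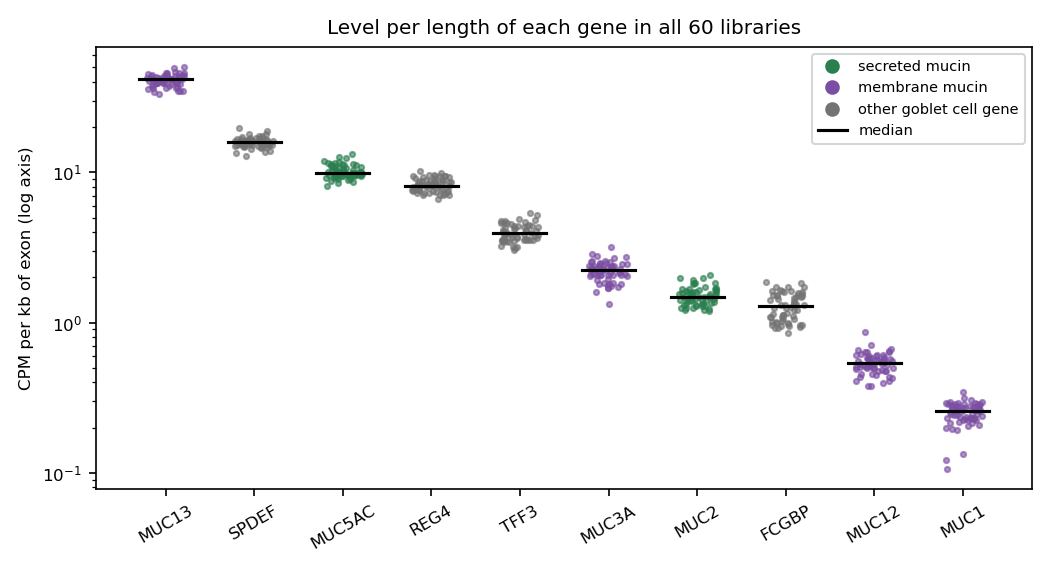
Level of each gene per kb of exon in all 60 libraries, on a log axis; each point is a library and each bar the median. MUC13 stands at the top with a median of 41.8 CPM per kb and MUC1 at the bottom with 0.257.

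The MUC3A and MUC12 genes lie side by side on chromosome 7, and MUC2 and MUC5AC side by side on chromosome 11. MUC3A spans chr7:100949555-100968346 and MUC12 chr7:100969623-101018949, both on the plus strand of GRCh38, and MUC2 spans chr11:1074875-1110511 and MUC5AC chr11:1157953-1201138, also on the plus strand. MUC13 spans chr3:124905442-124953819 on the minus strand. The 250 bases before the RefSeq start of 4 mucins that the results turn on are shown, 5′ to 3′ on the gene's strand and from GRCh38.p14, to set a gel-forming mucin beside 3 membrane mucins. Capitals mark matches to TATAAA, a form of the TATA box, or TTTATG, a motif of the intestinal factor CDX2, on either strand. Only exact matches are marked. Close variants such as tataag, present in the MUC2 and MUC12 windows, are not, so an unmarked window may still hold a TATA box. The MUC2 window is chr11:1074624-1074873, that of MUC3A chr7:100949284-100949533, that of MUC12 chr7:100969315-100969564 and that of MUC13 chr3:124934752-124935001.
MUC2: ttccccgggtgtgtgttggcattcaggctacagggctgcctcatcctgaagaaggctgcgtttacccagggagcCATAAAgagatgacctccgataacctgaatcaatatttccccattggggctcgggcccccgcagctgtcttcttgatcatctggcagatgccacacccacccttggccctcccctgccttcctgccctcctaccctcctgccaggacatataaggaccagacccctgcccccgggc
MUC3A: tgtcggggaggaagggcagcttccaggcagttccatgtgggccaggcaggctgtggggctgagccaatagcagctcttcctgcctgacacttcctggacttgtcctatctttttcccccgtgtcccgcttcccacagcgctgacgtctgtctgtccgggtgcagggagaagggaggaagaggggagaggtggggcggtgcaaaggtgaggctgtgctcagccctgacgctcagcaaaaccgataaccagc
MUC12: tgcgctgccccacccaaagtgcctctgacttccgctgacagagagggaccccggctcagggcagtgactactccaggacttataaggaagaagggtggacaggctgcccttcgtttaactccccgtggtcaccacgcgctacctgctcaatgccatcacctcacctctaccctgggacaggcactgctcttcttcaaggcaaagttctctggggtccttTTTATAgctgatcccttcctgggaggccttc
MUC13: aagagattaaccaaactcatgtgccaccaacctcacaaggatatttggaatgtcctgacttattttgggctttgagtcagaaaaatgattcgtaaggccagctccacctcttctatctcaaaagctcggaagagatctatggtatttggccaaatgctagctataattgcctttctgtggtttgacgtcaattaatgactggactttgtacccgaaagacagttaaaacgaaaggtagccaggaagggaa
The MUC2 window held a match to TTTATG on the minus strand of the gene and none to TATAAA, the MUC12 window a match to TATAAA on the minus strand, and the windows of MUC3A and MUC13 neither motif. RefSeq windows were at hand for 8 of the 10 genes, not for MUC5AC or TFF3. Of these 8, 3 held TATAAA (MUC1, MUC12 and REG4) and 2 held TTTATG (MUC2 and REG4), against 10.7% and 9.6% of 35116 such windows.

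The share of the secreted mucins in the RNA of 6 mucins differed little between extracts and vehicle. MUC2 and MUC5AC together made up 17.4% to 24.0% of the length-scaled level of the 6 mucins in the 57 treated libraries, with a median of 20.8%, against 19.1%, 21.5% and 24.7% in the 3 vehicle libraries. The vehicle libraries by themselves thus spanned most of the range of the treated ones. With 500 µg/mL the share was 22.2 ± 1.83% with Cnidii Rhizoma, 21.9 ± 2.06% with Rehmanniae Radix Preparata, 19.2 ± 1.58% with Cinnamomi Cortex, 21.4 ± 2.13% with Astragali Radix, 22.7 ± 0.44% with Samul-tang and 21.1 ± 1.10% with Sagunja-tang, against 21.8 ± 2.84% with vehicle (SD, n = 3 each). Cinnamomi Cortex gave the lowest mean of the 6, and its libraries at 17.4%, 19.7% and 20.4% overlapped those of the vehicle. The share sums over genes chosen with earlier results known, so it is given as a description, with no test. The sign of the difference from vehicle at 500 µg/mL depended on single vehicle libraries for every extract but Cinnamomi Cortex. Without vehicle replicate 1 the difference in percentage points was -0.95 with Cnidii Rhizoma (0.40 with all libraries), -1.23 with Rehmanniae Radix Preparata (0.12 with all libraries) and -0.40 with Samul-tang (0.94 with all libraries). Without vehicle replicate 3 it was 1.12 with Astragali Radix (-0.36 with all libraries) and 0.78 with Sagunja-tang (-0.71 with all libraries), and without vehicle replicate 2 that of Rehmanniae Radix Preparata was -0.03.

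**Figure D2:**
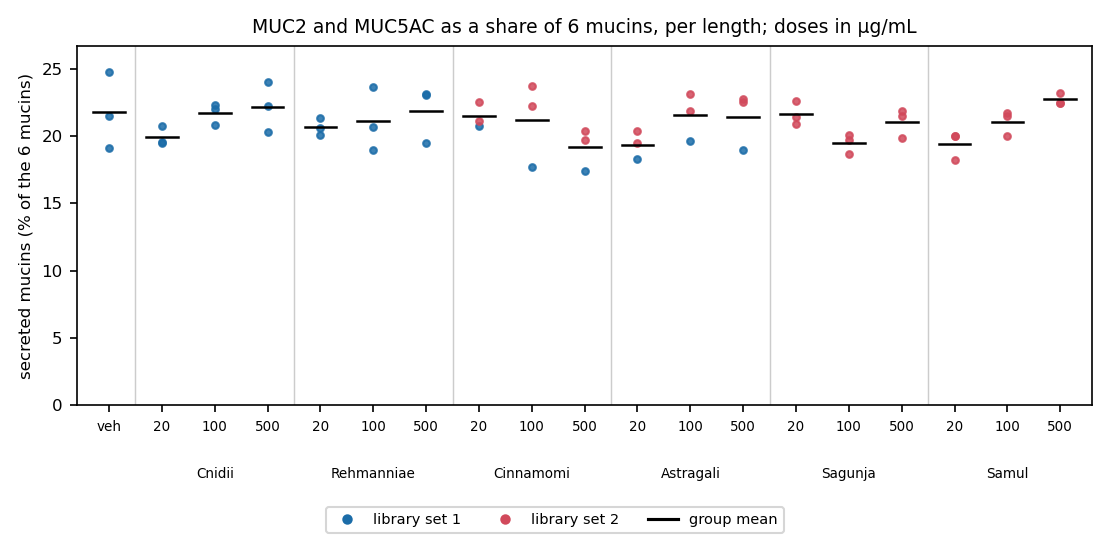
Share of the 2 secreted mucins in the length-scaled level of 6 mucins, in percent, by library; bars are group means, colours the library sets, and doses run in µg/mL beside the vehicle (veh). Treated libraries lie between 17.4% and 24.0% and vehicle libraries between 19.1% and 24.7%.

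Against vehicle, the changes of these genes were mostly decreases and they were small, and most of the calls were in the formula comparisons, where extract and library set coincide. A gene is called changed where the adjusted p of edgeR's quasi-likelihood test (Benjamini-Hochberg over 16356 genes within each comparison) was under 0.05. In bulk RNA, fewer cells of a type and less RNA per cell cannot be told apart. Over 18 comparisons with vehicle, 41 of 180 tests were called, 39 of them lower. The formulae had 31 calls in 60 tests and the single plants 10 in 120, against 10 in 60 and 9 in 120 once a library set term was added. The secreted mucins had 11 calls in 36 tests and the membrane mucins 20 in 72, all lower. With Sagunja-tang at 500 µg/mL 6 of 10 genes were called, all lower, where 20.2% of all genes were called and 8.5% were called lower. With Samul-tang at 500 µg/mL 5 of 10 were called, all lower, where 18.5% of all genes were called and 8.3% were called lower. At 100 µg/mL the calls were 5 of 10 with Sagunja-tang (all genes 16.6%, lower 7.23%) and 6 of 10 with Samul-tang (all genes 21.9%, lower 9.94%), all lower. At 20 µg/mL they were 4 of 10 with Sagunja-tang, 3 lower and 1 higher (all genes 18.5%, lower 8.85% and higher 9.68%), and 5 of 10 with Samul-tang, all lower (all genes 11%, lower 5.11%).

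In the single-plant comparisons fewer of these genes were called, and the difference from the formulae was not tested. At 500 µg/mL, 3 of 10 were called with Astragali Radix, all lower (all genes 3.58%, lower 1.46%), 2 with Cnidii Rhizoma, both lower (all genes 1.48%, lower 0.746%), and 2 with Cinnamomi Cortex, MUC2 lower and SPDEF higher (all genes 12.9%, lower 6.69% and higher 6.22%). At 20 µg/mL, 2 of 10 were called lower with Astragali Radix (all genes 1.39%, lower 0.391%) and 1 with Cinnamomi Cortex (all genes 1.71%, lower 0.446%). Rehmanniae Radix Preparata had no call by edgeR or DESeq2 at any dose (all genes 0.434% at 20, 0.208% at 100 and 0.636% at 500 µg/mL), and 2, 5 and 2 genes had an unadjusted p under 0.05. Cnidii Rhizoma had none by edgeR at 20 µg/mL (all genes 0.293%) or 100 µg/mL (all genes 0.147%), with 3 and 1 genes at an unadjusted p under 0.05 and 0 and 1 calls by DESeq2. Cinnamomi Cortex (all genes 8.08%) and Astragali Radix (all genes 2.51%) had none by either tool at 100 µg/mL, with 2 genes each at an unadjusted p under 0.05. The median log2 fold change of the 10 genes was below 0 in each of the 18 comparisons, from -0.31 with Sagunja-tang at 500 µg/mL to -0.06 with Cinnamomi Cortex at 100 µg/mL, while that of all genes lay within 0.005 of 0. All 18 share the same 3 vehicle libraries. The vehicle mean was the highest of the 19 groups for MUC2, MUC1, MUC3A, MUC12 and REG4, and not for the other genes.

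**Figure D3:**
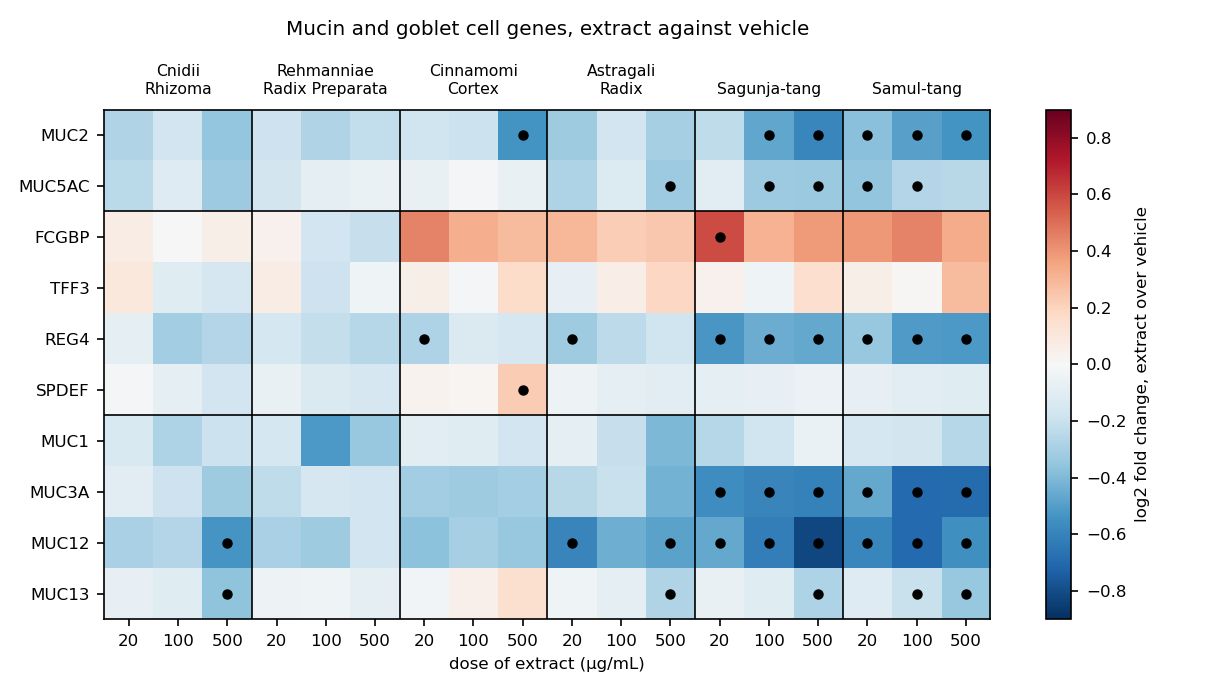
Log2 fold change over vehicle (colour) of the 10 genes by extract and dose in µg/mL, with secreted mucins in the upper block, other goblet cell genes in the middle and membrane mucins below; black dots mark calls at an adjusted p under 0.05. The dots gather in the columns of both formulae, and FCGBP and TFF3 are the rows with mostly positive values there.

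MUC2, the mucin of the colonic gel, was called lower in 6 of 18 comparisons. It had 16.9, 15.7 and 15.8 CPM with Sagunja-tang at 500 µg/mL, 15.9, 16.6 and 17.8 CPM with Samul-tang at 500 µg/mL and 15.4, 16.6 and 15.2 CPM with Cinnamomi Cortex at 500 µg/mL, against 18.8, 25.2 and 26.2 CPM with vehicle. Every library of these 3 groups lay below the lowest vehicle library, and vehicle replicate 1 stood well below the other vehicle libraries. The log2 fold change was -0.58 ± 0.13 (SE, adjusted p = 0.0015) with Sagunja-tang, -0.54 ± 0.13 (adjusted p = 0.0032) with Samul-tang and -0.53 ± 0.13 (adjusted p = 0.0028) with Cinnamomi Cortex. These 3 calls stood with each library left out in turn, with the highest adjusted p at 0.044. A term for the library set gave MUC2 values of -0.69 (adjusted p = 0.005), -0.65 (adjusted p = 0.012) and -0.61 (adjusted p = 0.0013). At 100 µg/mL the log2 fold change was -0.47 ± 0.13 with Sagunja-tang (adjusted p = 0.01) and -0.49 ± 0.13 with Samul-tang (adjusted p = 0.006), and both calls were lost without vehicle replicate 3, the first also without vehicle replicate 2 or Sagunja-tang replicate 3. At 20 µg/mL it was -0.38 ± 0.12 with Samul-tang (adjusted p = 0.042), a call lost on leaving out any of the 6 libraries but vehicle replicate 1.

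MUC5AC, the more abundant gel-forming mucin, was called lower in 5 comparisons, with smaller changes. It had 168, 153 and 168 CPM with Sagunja-tang at 500 µg/mL, against 170, 194 and 229 CPM with vehicle. These libraries lay only just below the lowest vehicle library, and the vehicle libraries were widely spread. The log2 fold change was -0.33 ± 0.10 (SE, adjusted p = 0.012), and without vehicle replicate 3 it was -0.20, with the adjusted p reaching 0.19 over the fits that left out a library. MUC5AC was also called with Astragali Radix at 500 µg/mL (-0.33 ± 0.10, adjusted p = 0.043), Sagunja-tang at 100 µg/mL (-0.33 ± 0.10, adjusted p = 0.016), and Samul-tang at 100 µg/mL (-0.27 ± 0.10, adjusted p = 0.041) and 20 µg/mL (-0.36 ± 0.10, adjusted p = 0.016). Each of these calls was also lost without vehicle replicate 3, the library with the highest MUC5AC. With the library set term the MUC5AC value was -0.41 with Sagunja-tang at 500 µg/mL (adjusted p = 0.034), and the other 4 were no longer called, though no closer to 0: Astragali Radix at 500 µg/mL gave -0.38 (adjusted p = 0.055), Sagunja-tang at 100 µg/mL -0.41 (adjusted p = 0.069), and Samul-tang gave -0.34 (adjusted p = 0.18) at 100 µg/mL, with -0.43 (adjusted p = 0.065) at the lowest dose. That term added a call with Cnidii Rhizoma at 500 µg/mL (-0.33, adjusted p = 0.045). With Samul-tang at 500 µg/mL MUC5AC had 172, 177 and 172 CPM and did not pass the test (-0.25 ± 0.10, adjusted p = 0.061).

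Of the membrane mucins, MUC12 and its chromosomal neighbour MUC3A had the larger decreases. MUC12 had 8.64, 6.51 and 6.48 CPM with Sagunja-tang at 500 µg/mL, against 9.81, 12.1 and 14.8 CPM with vehicle. The groups did not overlap, and the vehicle libraries were again far apart. The log2 fold change was -0.82 ± 0.15 (SE, adjusted p = 0.00019), the largest of the 10 genes in the comparisons with vehicle, and it stayed called in each fit with 1 library left out (log2 -0.97 to -0.66). MUC12 was called lower in all 6 formula comparisons, from -0.82 with Sagunja-tang at 500 µg/mL to -0.46 with Sagunja-tang at 20 µg/mL, and in 3 of 12 single-plant comparisons. Of the other 5 formula calls, that with Samul-tang at 100 µg/mL stood under every omission, and the rest were lost without vehicle replicate 3, the highest of the vehicle libraries (log2 -0.38 with Samul-tang at 500 µg/mL). The single-plant calls were with Cnidii Rhizoma at 500 µg/mL (-0.53 ± 0.14, adjusted p = 0.046) and Astragali Radix at 500 µg/mL (-0.48 ± 0.14, adjusted p = 0.049) and 20 µg/mL (-0.59 ± 0.15, adjusted p = 0.026). All 3 were lost without vehicle replicate 2 and without vehicle replicate 3. The library set term gave MUC12 a value of -0.56 for Sagunja-tang at 500 µg/mL (adjusted p = 0.043), and no other formula comparison kept its MUC12 call.

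MUC3A, a large membrane mucin of the intestine, was called in the 6 formula comparisons and in no single-plant comparison. It had 15.2, 23.9 and 20.8 CPM with Samul-tang at 500 µg/mL and 19.3, 20.6 and 20.3 CPM with Samul-tang at 100 µg/mL, against 28.3, 28.8 and 36.4 CPM with vehicle. No formula library reached the lowest vehicle library, since the 18 formula libraries ranged from 15.2 to 24.2 CPM. The log2 fold change was -0.69 ± 0.14 (adjusted p = 0.00062) and -0.70 ± 0.14 (adjusted p = 0.00066) with Samul-tang at 500 and 100 µg/mL, and -0.61 ± 0.14 (adjusted p = 0.0018) with Sagunja-tang at 500 µg/mL. These 3 calls stood with each library left out, and the other 3 were lost without vehicle replicate 3. Within Cinnamomi Cortex and Astragali Radix, which have libraries in both sets, MUC3A averaged 24.5 ± 2.48 CPM in the 12 libraries of set 2 and 27.7 ± 2.80 CPM in the 6 of set 1. Under the library set term the 6 formula values ran from -0.49 to -0.25, and none was called (lowest adjusted p = 0.097).

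**Figure D4:**
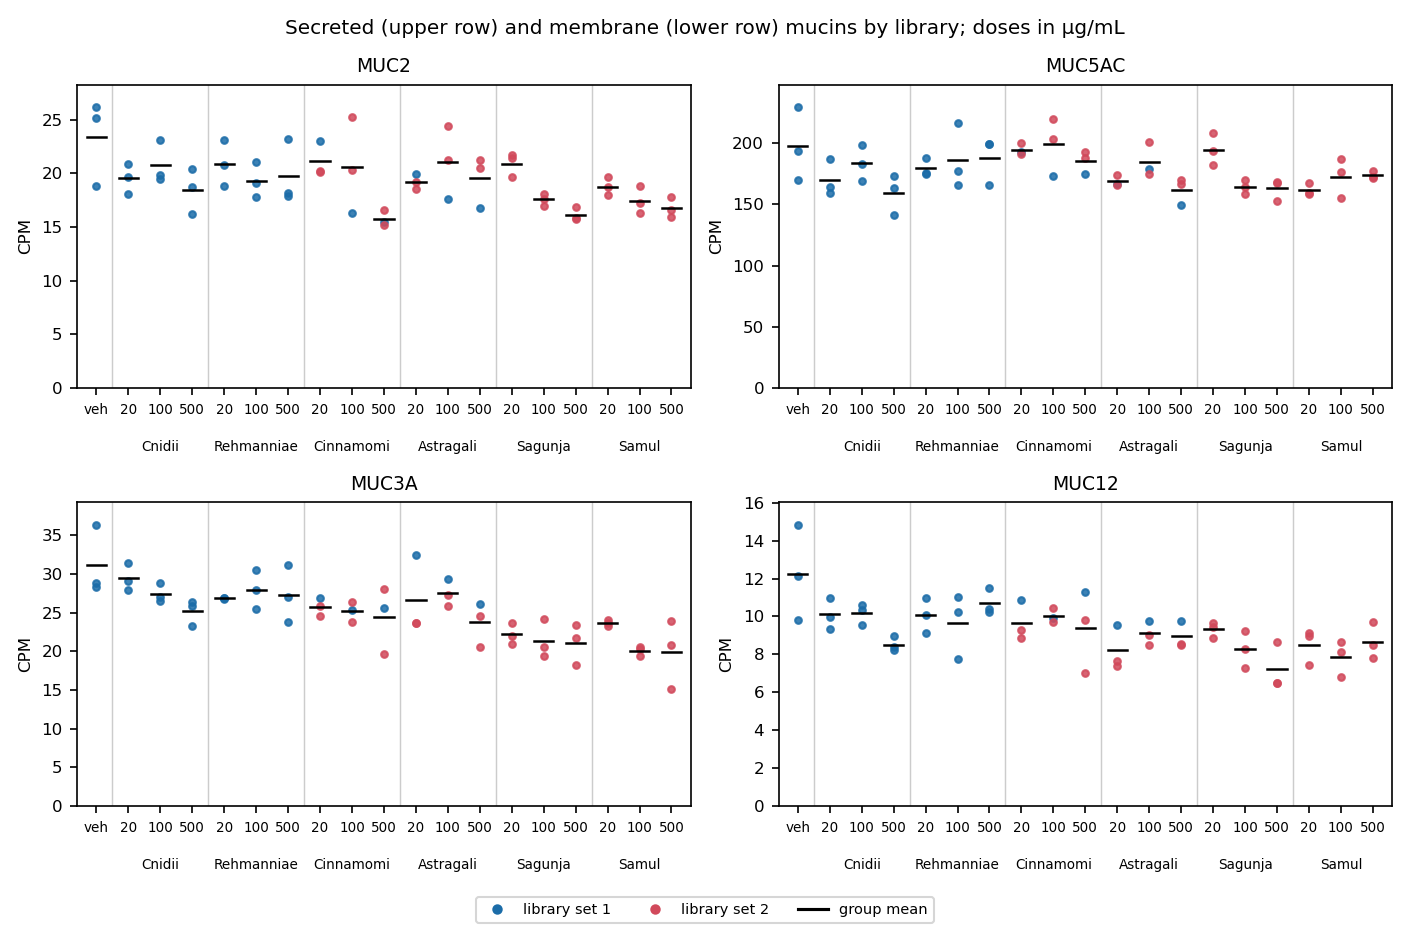
CPM of MUC2 and MUC5AC (upper panels) and of MUC3A and MUC12 (lower panels) in each of 57 libraries by extract and dose in µg/mL beside the vehicle (veh); bars are group means and colours the library sets. MUC3A and MUC12 are low in the formula libraries, and the 3 vehicle libraries are widely spread in all 4 panels.

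MUC13 was called lower at the highest dose of 4 extracts, and its vehicle libraries were close together. It had 122, 117 and 120 CPM with Cnidii Rhizoma at 500 µg/mL, against 155, 155 and 147 CPM with vehicle. The groups were tight and well apart. The log2 fold change was -0.36 ± 0.07 (SE, adjusted p = 0.00064), and it was -0.36 (adjusted p = 7.2e-05) in a fit of the first library set alone. At 500 µg/mL MUC13 was also called lower with Samul-tang (-0.34 ± 0.07, adjusted p = 0.00046), Sagunja-tang (-0.28 ± 0.07, adjusted p = 0.0027) and Astragali Radix (-0.27 ± 0.07, adjusted p = 0.013), and the formula calls stood with each library left out. Samul-tang at 100 µg/mL gave -0.20 ± 0.07 (adjusted p = 0.023), and this call and that of Astragali Radix were each lost in 3 of 6 such fits, vehicle replicate 2 and replicates 2 and 3 of the extract. The library set term left the Astragali Radix and formula values at 500 µg/mL without a call (Sagunja-tang -0.11, adjusted p = 0.4, and Samul-tang -0.17, adjusted p = 0.15), while that of Cnidii Rhizoma kept its own. With Cinnamomi Cortex at 500 µg/mL MUC13 had 176, 161 and 159 CPM, all above the highest vehicle library. That difference did not pass the test (0.14 ± 0.06, adjusted p = 0.15), and with the library set term it was 0.25 (adjusted p = 0.00067). The term counts replicate 2 of this group as set 2, though it lay with set 1 on the first principal component of all genes. Its mitochondrial share, 10.27%, was the highest of set 2.

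MUC1, the membrane mucin of many epithelia and carcinomas, was barely expressed. It had 0.504 to 1.62 CPM in treated libraries and 1.24, 1.29 and 1.45 CPM with vehicle, at most 49 counts in a library. No comparison of MUC1 with vehicle was called by edgeR or DESeq2, 1 had an unadjusted p under 0.05, and at this depth the standard errors of its log2 fold changes were about 0.24. The value farthest from 0 was -0.52 ± 0.25 (adjusted p = 0.74) with Rehmanniae Radix Preparata at 100 µg/mL, where MUC1 averaged 0.899 ± 0.363 CPM, against 1.33 ± 0.109 CPM with vehicle (SD, n = 3 each). All 18 values were below 0, with a median of -0.17, and -0.39 with an adjustment for GC content and length that was chosen after seeing the data, again with no call.

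By class, the median log2 fold changes of the secreted and the membrane mucins were of like size in the formulae. With the library set term the class medians were apart, while the single genes did not divide by class. The median log2 fold change over the 6 formula comparisons was -0.34 for the secreted mucins (9 of 12 tests called) and -0.40 for the membrane mucins (15 of 24 called). With the library set term it was -0.42 for the secreted mucins (5 of 12 called, 4 of them MUC2) and -0.18 for the membrane mucins (1 of 24 called, MUC12). By gene, these set-term medians were -0.59 for MUC2 and -0.37 for MUC5AC. The membrane mucins had -0.39 (MUC3A), -0.34 (MUC12), 0.01 (MUC13) and 0.03 (the barely expressed MUC1). Under that term the share of all genes called was 2.58% with Cnidii Rhizoma, 1.25% with Rehmanniae Radix Preparata and 11.8% with Cinnamomi Cortex at 500 µg/mL and 0.391% with Cnidii Rhizoma at 100 µg/mL, the single-plant comparisons with calls among the 10 genes. In the formula comparisons it was 2.12% (500 µg/mL), 0.66% (100 µg/mL) and 0.605% (20 µg/mL) with Sagunja-tang, and with Samul-tang 1.22%, 0.55% and 0.367% at the same doses. Over the 12 single-plant comparisons the medians were -0.19 for the secreted mucins (2 of 24 called) and -0.22 for the membrane mucins (5 of 48 called), and, with the set term, -0.24 for the secreted and -0.16 for the membrane mucins. The difference between the classes was not tested. Fewer calls against vehicle were made without vehicle replicate 2 or 3, and such a fit also has fewer vehicle libraries. The share of all genes called in those fits is not given here. Without vehicle replicate 3, the highest of the 3 in MUC2, MUC5AC, MUC3A and MUC12, the calls over the 10 genes and 6 extracts were 13 at 500, 5 at 100 and 2 at 20 µg/mL, against 18, 11 and 12 with all libraries, and without vehicle replicate 2 they were 14, 8 and 7.

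Of the goblet cell products, REG4 had the most calls. It had 24.7, 26.1 and 25.0 CPM with Samul-tang at 500 µg/mL and 25.3, 27.1 and 23.3 CPM with Sagunja-tang at 20 µg/mL, against 34.4, 33.7 and 35.5 CPM with vehicle. The vehicle libraries were tight here, and every treated library of every extract lay below them, not only those of the formulae. The highest of the 57 treated libraries had 33.66 CPM and the lowest vehicle library 33.74 CPM. The log2 fold change was -0.51 ± 0.08 (adjusted p = 1.4e-05) with Samul-tang at 500 µg/mL and -0.53 ± 0.08 (adjusted p = 1.1e-05) with Sagunja-tang at 20 µg/mL, and all 6 formula comparisons were called, each also with any 1 library left out. REG4 was also called with Cinnamomi Cortex at 20 µg/mL (-0.28 ± 0.08, adjusted p = 0.046) and Astragali Radix at 20 µg/mL (-0.32 ± 0.08, adjusted p = 0.024), and each of these was lost in 5 of 6 fits that left out a library, any vehicle library among them. In the fit with the library set term 4 of the 6 formula comparisons were called, Samul-tang at 500 µg/mL (-0.36, adjusted p = 0.0083) and 100 µg/mL (-0.36, adjusted p = 0.016) and Sagunja-tang at 500 µg/mL (-0.31, adjusted p = 0.024) and 20 µg/mL (-0.38, adjusted p = 0.0082). That fit also called REG4 lower with Cnidii Rhizoma at 100 µg/mL (-0.31, adjusted p = 0.011) and 500 µg/mL (-0.27, adjusted p = 0.018) and with Rehmanniae Radix Preparata at 500 µg/mL (-0.26, adjusted p = 0.041).

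FCGBP went the other way, and its level followed the library set. It had 22.5, 20.3 and 23.8 CPM with Sagunja-tang at 20 µg/mL, against 14.3, 14.5 and 13.2 CPM with vehicle. The groups were far apart, and this was its single call (0.59 ± 0.17, adjusted p = 0.016), lost without vehicle replicate 3 or Sagunja-tang replicate 3. The number of FCGBP calls depended on the fit, at 10 of 18, all higher, without the filter on low counts, and at 6 of 18, all higher and all formula comparisons, where only the 6 libraries compared were fitted. Within Cinnamomi Cortex and Astragali Radix FCGBP had 14.7 to 24.0 CPM in the 12 libraries of set 2 and 11.8 to 14.5 CPM in the 6 of set 1, with no overlap. The 18 formula libraries, at 16.9 to 23.8 CPM, lay within the range of those 12. Under the library set term the Sagunja-tang value was -0.0023 (adjusted p = 1), and all 6 formula values were below 0. TFF3 averaged 5.06 ± 0.61 CPM in the 12 libraries of set 2 and 4.11 ± 0.30 CPM in the 6 of set 1 of those plants (SD), with overlapping ranges, 4.23 to 6.07 CPM in set 2 and 3.54 to 4.46 CPM in set 1. It had no call among the 18 comparisons by edgeR or DESeq2, with 1 at an unadjusted p under 0.05. Its largest value was 0.28 ± 0.13 with Samul-tang at 500 µg/mL (adjusted p = 0.13).

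SPDEF, the goblet cell transcription factor, was called once against vehicle. It had 35.9, 33.4 and 37.8 CPM with Cinnamomi Cortex at 500 µg/mL, against 30.7, 30.8 and 31.5 CPM with vehicle. Every treated library was higher, by a log2 fold change of 0.23 ± 0.06 (adjusted p = 0.011). The call was lost without vehicle replicate 1 or without Cinnamomi Cortex replicate 3 (highest adjusted p = 0.082). It was also lost where only the 6 libraries compared were fitted (0.22, adjusted p = 0.082) and with the adjustment for GC content and length (0.12, adjusted p = 0.25). Under that adjustment SPDEF was instead called lower in 5 of the 6 formula comparisons, from -0.22 to -0.19. Which SPDEF comparisons were called thus depended on the processing. In both fits all 6 formula values of SPDEF were below 0, with a median of -0.08 in the main fit and -0.20 with the adjustment.

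**Figure D5:**
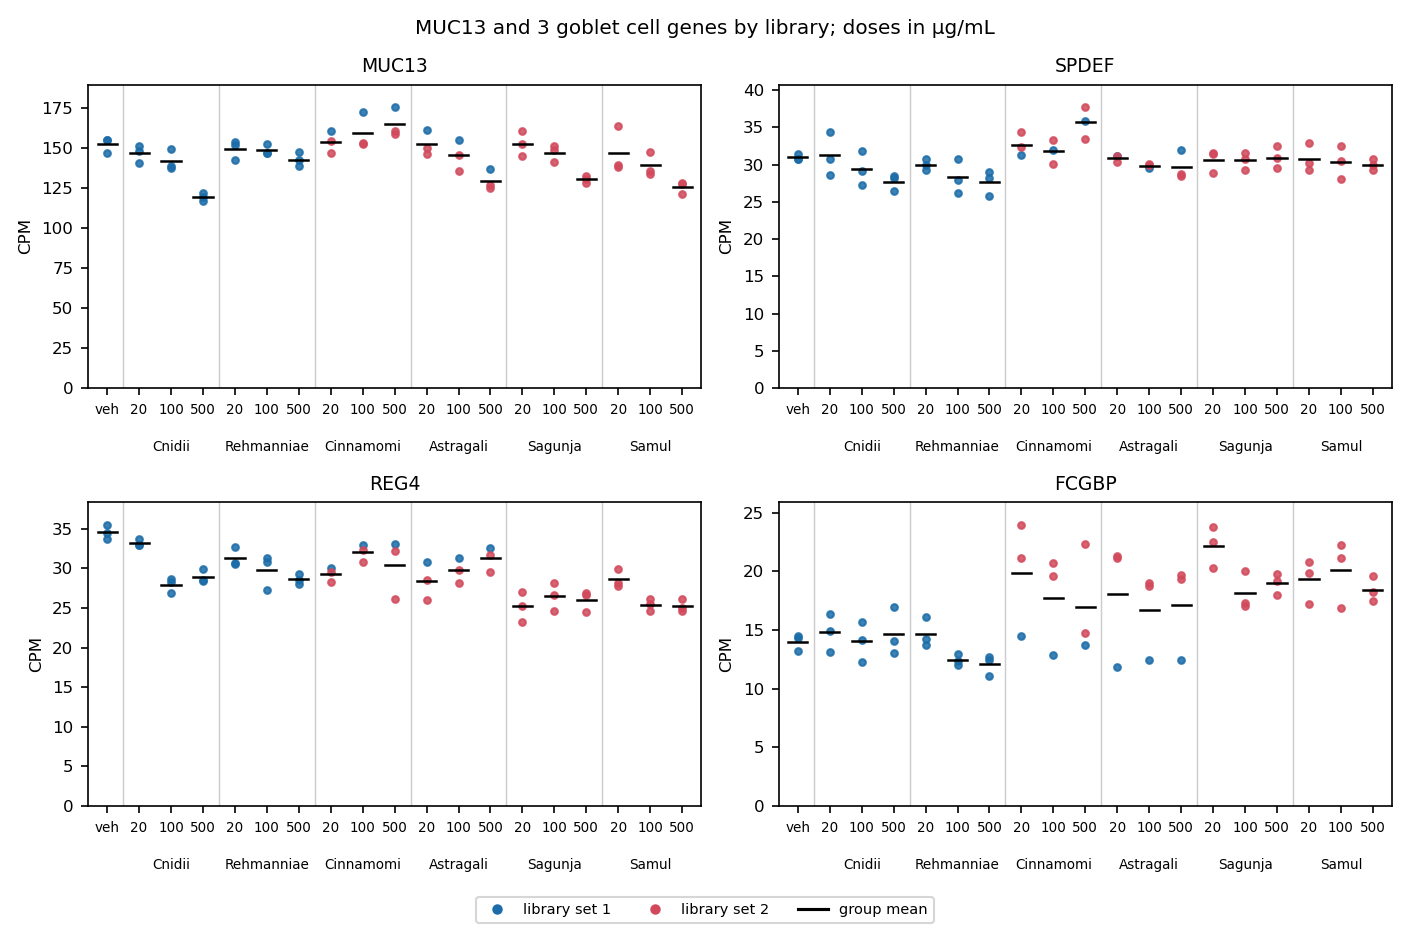
CPM of MUC13, SPDEF, REG4 and FCGBP in each of 57 libraries by extract and dose in µg/mL beside the vehicle (veh); bars are group means and colours the library sets. MUC13 is lowest at 500 µg/mL of Cnidii Rhizoma (117 to 122 CPM) and highest at 500 µg/mL of Cinnamomi Cortex (159 to 176 CPM), and FCGBP separates by set.

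The contrast of 500 with 20 µg/mL asks whether the response depends on dose, and the vehicle does not enter it, while both doses hold the same mix of library sets. On the first principal component of all genes, Cinnamomi Cortex replicate 2 at 500 µg/mL, a library of set 2, lay with set 1. MUC13 with Cnidii Rhizoma was lower at 500 µg/mL, where it had 122, 117 and 120 CPM, than at 20 µg/mL, where it had 151, 148 and 141 CPM (log2 -0.29 ± 0.06, adjusted p = 0.019). It was the 1 call of 10 genes there (all genes 0.428%), and it was lost in 5 of 6 fits that left out a library, with adjusted p up to 0.14. SPDEF with Cinnamomi Cortex had 35.9, 33.4 and 37.8 CPM at 500 µg/mL, against 31.3, 32.4 and 34.5 CPM at 20 µg/mL (0.19 ± 0.06, adjusted p = 0.037). Here the ranges overlapped, it was the 1 call of 10 (all genes 10.2%), and it too was lost in 5 of 6 such fits. MUC13 was lower at 500 than at 20 µg/mL with Astragali Radix (-0.23 ± 0.07, adjusted p = 0.32), Sagunja-tang (-0.21 ± 0.06, adjusted p = 0.25) and Samul-tang (-0.22 ± 0.06, adjusted p = 0.24) without passing the test. The value was -0.03 ± 0.06 with Rehmanniae Radix Preparata and 0.17 ± 0.06 with Cinnamomi Cortex (adjusted p = 0.084). With the library set term these MUC13 values hardly moved while their adjusted p fell to 0.036 with Astragali Radix, 0.056 with Sagunja-tang, 0.024 with Samul-tang and 0.014 with Cinnamomi Cortex, against 0.9 with Rehmanniae Radix Preparata. No gene of the 10 was called by edgeR or DESeq2 with Rehmanniae Radix Preparata (all genes 0.177%), Astragali Radix (all genes 0.0734%), Sagunja-tang (all genes 0.00611%) or Samul-tang (all genes 0.141%), and 0, 1, 4 and 2 genes had an unadjusted p under 0.05.

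The dose responses of MUC13 differed between extracts. In 15 pairwise tests of the difference between 2 extracts' 500-versus-20 effects, 5 of 150 gene tests were called, 4 of them MUC13, and all 5 involved Cinnamomi Cortex. For MUC13 the Cinnamomi Cortex effect exceeded that of Astragali Radix by 0.40 ± 0.09 (adjusted p = 0.0056, all genes 2.57%), that of Sagunja-tang by 0.38 ± 0.09 (adjusted p = 0.014, all genes 1.75%) and that of Samul-tang by 0.39 ± 0.09 (adjusted p = 0.0086, all genes 2.15%). The Cnidii Rhizoma effect minus that of Cinnamomi Cortex was -0.46 ± 0.09 (adjusted p = 0.0013, all genes 2.27%) for MUC13 and -0.36 ± 0.09 (adjusted p = 0.018) for SPDEF. The MUC13 differences from Cnidii Rhizoma and from Astragali Radix stayed called with any 1 of the 12 libraries left out, that from Samul-tang in 11 of 12 such fits (lost without Samul-tang replicate 1 at 20 µg/mL), and that from Sagunja-tang and the SPDEF difference in 8 of 12. DESeq2 also called 5, and 29 tests had an unadjusted p under 0.05.

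Extracts of the same code series were compared at matched doses, 9 pairs in all, with p-values adjusted over all genes within each pair. With Cinnamomi Cortex against Astragali Radix at 500 µg/mL, MUC13 had 176, 161 and 159 CPM with Cinnamomi Cortex, against 137, 127 and 125 CPM with Astragali Radix (log2 0.41 ± 0.06, adjusted p = 6.9e-06). SPDEF had 35.9, 33.4 and 37.8 CPM with Cinnamomi Cortex, against 31.9, 28.4 and 28.8 CPM with Astragali Radix (0.32 ± 0.06, adjusted p = 0.00026). The ranges were apart for both genes, both calls stood with each library left out, and they were the 2 calls of 10 genes where 10.8% of all genes were called. At 100 µg/mL (all genes 0.0673%) and 20 µg/mL (all genes 0%) no gene of the 10 was called in that pair by edgeR or DESeq2, with 1 at an unadjusted p under 0.05 each time.

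Sagunja-tang and Samul-tang, the pair with the most calls against vehicle, had no call against each other by edgeR or DESeq2 at 500 (all genes 0.318%), 100 (0.251%) or 20 µg/mL (0.238%), and 0, 0 and 2 of the 10 genes had an unadjusted p under 0.05. At 500 µg/mL the 95% interval of the Sagunja-tang minus Samul-tang difference was -0.30 to 0.21 on the log2 scale for MUC2, -0.57 to 0.02 for MUC12, -0.19 to 0.36 for MUC3A and -0.10 to 0.21 for REG4. Cnidii Rhizoma against Rehmanniae Radix Preparata had no edgeR call at 500 (all genes 0.147%), 100 (0%) or 20 µg/mL (0%), with 3, 0 and 0 genes at an unadjusted p under 0.05. At 500 µg/mL MUC13 had 122, 117 and 120 CPM with Cnidii Rhizoma, against 147, 142 and 138 CPM with Rehmanniae Radix Preparata. The groups did not overlap, and the difference was -0.28 on the log2 scale with a 95% interval of -0.41 to -0.15. DESeq2 made 1 call at 500 µg/mL, and so did edgeR with the first library set alone, for MUC13 (adjusted p = 0.0081).

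Paeoniae Radix had 1 library per dose, so its values carry no replicate check and no test. At 20, 100 and 500 µg/mL, MUC2 was at 15.3, 17.5 and 15.7 CPM, below the lowest of the 3 vehicle libraries at each dose. MUC13 was at 138, 140 and 121 CPM, lowest at the highest dose, and REG4 at 25.4, 26.6 and 25.9 CPM. The secreted share was 18.6%, 20.2% and 22.1%.

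Among other genes of the mucus pathway calls went in both directions, except that the other membrane mucins had calls only toward lower levels with Sagunja-tang at 500 µg/mL. The lists hold no gene of the 10. Of 12 secretory lineage factors, all tested, 2 were called higher and 3 lower with Sagunja-tang at 500 µg/mL, where 20.2% of all genes were called, and 4 higher and 3 lower with Cinnamomi Cortex at 500 µg/mL, where 12.9% were. The median log2 fold change of the 12 was -0.03 with Sagunja-tang and 0.14 with Cinnamomi Cortex, while that of all genes was 0.001 with Sagunja-tang and 0.003 with Cinnamomi Cortex. CREB3L1, a secretory pathway factor, averaged 154 ± 3.34 CPM with Sagunja-tang at 500 µg/mL, against 202 ± 12.7 CPM with vehicle (log2 -0.44 ± 0.07, adjusted p = 7e-05). Extract and library set coincide in that comparison, and the CREB3L1 value with the library set term is not given here. FOXA1, a gut endoderm factor, averaged 107 ± 5.97 CPM with Cinnamomi Cortex at 500 µg/mL and 132 ± 5.86 CPM with vehicle (-0.27 ± 0.06, adjusted p = 0.0029). HES1, the Notch target that represses secretory fate, had 31.6 ± 1.95 CPM with the same extract and 40.2 ± 1.58 CPM with vehicle (-0.33 ± 0.07, adjusted p = 0.00053). ELF3, an epithelial ETS factor, was called higher with Sagunja-tang at 500 µg/mL (0.27 ± 0.07, adjusted p = 0.0092) and stood at 0.05 with the library set term (adjusted p = 0.79).

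Of 22 tested genes of mucin O-glycosylation, 3 were called higher and 1 lower with Sagunja-tang at 500 µg/mL, a share near the 20.2% of all genes called there (median log2 fold change 0.05). GCNT3, the core 2 and core 4 glycan-branching enzyme of mucin cells, had the most calls of that list, 9 of 18. It averaged 514 ± 21.1 CPM with Cinnamomi Cortex at 500 µg/mL, against 431 ± 16.5 CPM with vehicle (0.28 ± 0.04, adjusted p = 1.2e-07). Of 10 tested genes of mucus granule exocytosis, 1 was called higher and 2 lower with Cinnamomi Cortex at 500 µg/mL, where 12.9% of all genes were called (median log2 fold change -0.01). SYTL2, a RAB27 effector that tethers granules, was called lower in 12 of 18 comparisons and averaged 34.2 ± 3.39 CPM with Cinnamomi Cortex at 500 µg/mL, against 55.3 ± 3.62 CPM with vehicle (-0.67 ± 0.07, adjusted p = 9.6e-10). Of 4 tested other membrane mucins, 3 were called lower with Sagunja-tang at 500 µg/mL, where 8.5% of all genes were called lower (median log2 fold change -0.60): MUC17 (-0.70 ± 0.15, adjusted p = 0.0013), MUC16 (-0.82 ± 0.20, adjusted p = 0.0031) and MUC20 (-0.32 ± 0.10, adjusted p = 0.017). None of these 3 was called with the library set term (adjusted p = 0.23, 0.083 and 0.28). Of 11 tested goblet products outside the 10 genes, 1 was called higher and 2 lower with Sagunja-tang at 500 µg/mL, where 20.2% of all genes were called (median log2 fold change 0.01). Among the lower was AGR2, the disulfide isomerase needed for MUC2 assembly, at 214 ± 7.69 CPM against 239 ± 6.77 CPM with vehicle (-0.21 ± 0.07, adjusted p = 0.039, and -0.04 with the library set term, adjusted p = 0.86). Neither of the 2 tested other gel-forming mucins, MUC5B and MUC6, was called there.

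The genes whose log2 CPM followed MUC2 most closely over the 57 libraries, of 10778 ranked, were IGF2 (Pearson r = 0.777), CREB3L1 (0.720) and BCAM (0.718). For MUC13 they were TIMP2 (0.811), TP53INP2 (0.752) and SLC6A20 (0.751), and for REG4 DYNLRB1 (0.803), GNAS (0.791) and IDH3G (0.791). These are descriptions, since the libraries share extracts, vehicle and library sets.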

How the data were processed

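Expression in HT29 cells was measured by strand-marking mRNA sequencing with paired 100-base reads, per the labels' protocols. The authors deposited expected counts per gene for the whole series. The submitters' processing notes name RSEM 1.3.3, STAR 2.7.3a, Trim Galore 0.6.5, FastQC 0.11.9 and the GRCh38 build, with no role or order. For the annotation release, a version is not given in the sources used here. Among 273 value columns, 60 belong to these samples and 213 were not used. Expected counts were rounded (8.8% were not whole). Symbols came from a gene names table (56558 identifiers) and from GENCODE 29 (497), which also gave exon lengths.

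Levels are CPM, a gene's counts scaled to an equal total in each library. The main test was edgeR 4.0.16 (quasi-likelihood, TMM factors, filterByExpr with a minimum count of 10, 16356 genes) over 57 libraries in 19 groups, with Benjamini-Hochberg adjustment within each comparison and calls at an adjusted p under 0.05. It made 33 comparisons and 15 tests of differences between dose effects. Replicate libraries correlated at 0.9913 to 0.997 and differed beyond sampling noise. The fit was tested on simulated data with 200 changed genes. It called 76% of those changed by 1 on the log2 scale and 63% of those changed by less, with 14 false calls. A true change of that size can therefore go uncalled. Intervals of differences are normal 95% intervals and cover the error of the fit only. DESeq2 1.42.0 served as an alternative, with other factors, filters, a library set term, a replicate block and left-out libraries. The adjustment for GC content and length and the fit of the first library set alone were chosen after seeing the data. The 10 genes, the other lists and the library sets were chosen with earlier results of these data known. All 10 genes were named by rule; of each other list the genes with the most calls against vehicle were eligible, up to 4, along with the 3 genes most like MUC2, MUC13 and REG4. All 10 passed the filter on low counts. The MUC2 and FCGBP loci carry a reference error tag in GENCODE 29, and their lengths are those of that annotation. Sequences are RefSeq promoters of GRCh38.p14.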

Additional observations from a re-analysis of the deposited data

Results flagged for a closer look

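The dose responses listed here differed between extracts by a test of the difference itself (edgeR's quasi-likelihood test, 500 versus 20 µg/mL in each extract, 3 libraries per group). For MUC13, the effect of Cnidii Rhizoma minus that of Cinnamomi Cortex was -0.46 on the log2 scale (adjusted p = 0.0013), that of Cinnamomi Cortex minus Astragali Radix 0.40 (adjusted p = 0.0056), that of Cinnamomi Cortex minus Sagunja-tang 0.38 (adjusted p = 0.014) and that of Cinnamomi Cortex minus Samul-tang 0.39 (adjusted p = 0.0086). For SPDEF, the effect of Cnidii Rhizoma minus that of Cinnamomi Cortex was -0.36 (adjusted p = 0.018). All 5 rest on the same 6 Cinnamomi Cortex libraries. Single libraries were not tested for lying apart, since each group has 3.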

How the results depend on the processing

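Calls over the 10 genes and 6 extracts against vehicle numbered 18 at 500, 11 at 100 and 12 at 20 µg/mL. Without the filter on low counts they were 31, 19 and 22. With the library set term they were 14, 4 and 1. Leaving out a library each time gave 13 to 22, 5 to 13 and 2 to 14. Under the set term the share of all genes called also fell in every formula comparison. For Sagunja-tang at the highest dose it went from 20.2% to 2.12%, and for Samul-tang at the lowest from 11% to 0.367%. Among single plants at the highest dose it rose for Cnidii Rhizoma (1.48% to 2.58%) and Rehmanniae Radix Preparata (0.636% to 1.25%). It fell for Cinnamomi Cortex (12.9% to 11.8%). For the other fits of this section that share is not given. The 2 calls between 500 and 20 µg/mL became 8 without the filter, 6 with the library set term, 7 with the replicate block and 1 with only the 6 libraries compared, and 1 to 3 with a library left out. The 2 calls between extracts of a code series became 7 without the filter, 4 with DESeq2 and 4 with the GC and length adjustment, and 2 to 2 with a library left out. RLE factors changed no call. FCGBP with Sagunja-tang at 20 µg/mL turned to -0.0023 with the library set term. The cause of these shifts was not tested.

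Replicate numbers paired the libraries in 1 of the 33 comparisons by the correlation of their deviations (Cinnamomi Cortex against Astragali Radix at 100 µg/mL), which has no call among the 10 genes. Elsewhere not all 3 replicate numbers passed that check. In Cinnamomi Cortex and Astragali Radix the number also carries the library set, with the first replicate in set 1 and the others in set 2. For Astragali Radix at 500 against 20 µg/mL the correlations were 0.33, 0.05 and 0.18. The replicate block gave 21, 14 and 12 calls against vehicle. Of the 7 calls between doses with the block, 5 were MUC13 (all extracts but Rehmanniae Radix Preparata). The secreted share had a median of 20.8% over 60 libraries, 17.9% with the longest transcript as length, 52.2% without length scaling and 16.4% over all listed mucins. The coding length was not run, because GENCODE 29 holds only a fragment of the MUC2 coding sequence. Depth limits MUC1, at most 49 counts in a library.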
